A study of Rattus norvegicus with 6 samples.

Results

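The 10 genes described here, Thy1, Pdgfrb, Pdgfra, Eng, Nt5e, Mcam, Cspg4, Rgs5, Dpp4 and Cd34, are markers of adipose stromal cells and pericytes. They were chosen by name, with earlier results of these data known, and all 10 were found among the 18420 genes listed in the deposited table. The question they address is whether RNA of the fat-derived cells in the Nanofat lysate (NFL) could be seen in the treated chondrocytes. RNA-seq was performed on primary chondrocytes of wild-type (WT) male Sprague-Dawley rats of 180 to 220 g. The TNF-α group (3 libraries) was exposed for 6 h to TNF-α at 10 ng/mL, while the TNF-α+NFL group (3 libraries) was then kept with NFL for another 24 h. TNF-α was therefore shared by both groups, and the time given in the labels is 6 h without NFL and 30 h with it, so that NFL and time in culture cannot be told apart. The chondrocytes had been grown to the third passage and those of the same passage were divided between groups. NFL is the supernatant left after the stromal vascular fraction of rat abdominal fat was freeze–thawed and spun, and its own RNA was not analysed here. The study calls the replicates of a group independent biological ones. Neither it nor the labels say whether these were separate animals or cultures of pooled cells, so p-values measure the spread between these libraries.

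The stromal vascular fraction of fat holds stromal progenitor cells, pericytes, endothelial cells and blood cells. Stromal cells of fat are recognised by the platelet-derived growth factor receptor PDGFRα and by surface proteins such as Thy1 (CD90), endoglin (Eng, CD105) and the ecto-5'-nucleotidase Nt5e (CD73), and fresh stromal cells also carry Cd34, with Dpp4 on early progenitors. Pericytes, which wrap around capillaries, are recognised by PDGFRβ, the proteoglycan NG2 (Cspg4), the adhesion molecule Mcam (CD146) and the G-protein regulator Rgs5. Several of these proteins are also present on cultured mesenchymal cells of other tissues, chondrocytes grown on plastic included.

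Each library held between 19344893 and 19725135 estimated counts, of which the 10 genes took 0.399% to 0.432%. The labelled cell type was checked against its markers. Col2a1, the main cartilage collagen, was at a mean of 8.47 TPM (a level corrected for transcript length and library size), Acan at 5.33 TPM and Sox9 at 4.54 TPM over the 6 libraries, whereas the fibroblast collagen gene Col1a1 was at 1265 TPM. Of the 17 genes of the chondrocyte list, 2 were high, Prg4, which encodes the joint lubricant lubricin, at 1100 TPM and the minor cartilage collagen gene Col11a1 at 460 TPM, and the other 15 were at 9.44 TPM or less. Most markers of the labelled cells were thus at low levels. Between the groups, 54 genes were higher and 27 lower in TNF-α+NFL of the 13250 genes tested (adjusted p under 0.05, edgeR's quasi-likelihood test), which is 0.408% and 0.204% of them.

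Of the 10 marker genes, 7 passed the filter on low counts and were tested, and Rgs5, Dpp4 and Cd34 did not. Mcam rose by 29.5% in TNF-α+NFL and was the marker gene that passed an adjusted p of 0.05 with all 6 libraries. Cspg4 was 15.3% lower on average, with no overlap between the groups, and did not pass the test (adjusted p = 0.22). No member passed in the lower direction by edgeR, where 1 had an unadjusted p under 0.05, nor by the DESeq2 Wald test or limma-voom. The other tested members differed by 6.81% or less between the group means. The median log2 fold change of the 7 was 0.056, with 5 positive and 2 negative, against -0.0035 over all tested genes. The groups did not overlap in 3 of the 7 (42.9%), against 16.8% of all tested genes. An unadjusted p under 0.05 was found for 3 of the 7, Mcam, Thy1 and Cspg4, against 11.1% of all tested genes.

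The levels of the 7 tested members covered a wide range and kept the same order in both groups. Thy1 was highest, at 2402 to 2733 TPM, which put it at percentile 99.8 of the listed genes. Pdgfrb followed at 352 to 431 TPM (percentile 97.8) and Pdgfra at 163 to 207 TPM. Eng was at 78.8 to 89.7 TPM and Nt5e at 54.2 to 65.7 TPM. Mcam (20.3 to 27.7 TPM) and Cspg4 (14.9 to 20.4 TPM) were the lowest of the 7. Neighbours in this order did not overlap in TPM over the 6 libraries, apart from Mcam and Cspg4, which overlapped within the TNF-α group and were apart within the TNF-α+NFL group. Rgs5, Dpp4 and Cd34 were at 0.40 TPM or less in every library. The 10 genes summed to 3295, 3095 and 3185 TPM in the TNF-α replicates and to 3445, 3524 and 3386 TPM in the TNF-α+NFL replicates. These sums did not overlap, and Thy1 made up most of each.

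**Figure D1:**
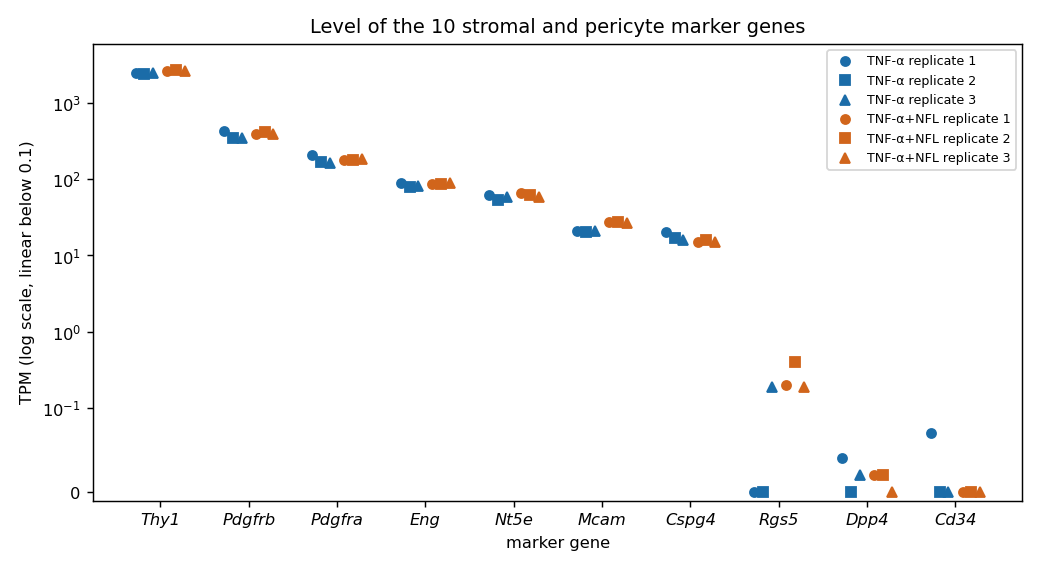
TPM of each marker gene (vertical axis, log scale that is linear below 0.1 TPM) in each of the 6 libraries, with blue for TNF-α and orange for TNF-α+NFL. Levels run from 2402 to 2733 TPM for Thy1 down to 0.07 TPM or less for Dpp4 and Cd34.

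Thy1, Eng and Nt5e are the surface proteins by which cultured mesenchymal stromal cells are commonly defined. Thy1 (gene ID 24832), a small glycoprotein anchored to the membrane by lipid, had normalized counts (CPM, the counts of a gene scaled to a common library size by TMM) of 2062, 2101 and 2166 in TNF-α replicates 1, 2 and 3, and of 2268, 2290 and 2204 in those of TNF-α+NFL. The TNF-α+NFL libraries were all above the TNF-α libraries, as in 8.66% of all tested genes. The difference was small, with a log2 fold change of 0.095 (standard error 0.037, 95% confidence interval 0.016 to 0.17), and did not pass the test (edgeR adjusted p = 0.33).

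Eng (gene ID 497010) encodes a co-receptor for TGF-β family ligands. Its CPM was 123, 113 and 119 in the TNF-α replicates and 119, 119 and 125 in the TNF-α+NFL replicates. These values overlapped, and the log2 fold change was 0.033 (95% confidence interval -0.063 to 0.13, adjusted p = 0.86). For Eng it lay between 0.0024 and 0.064 when 1 library was left out. Nt5e (gene ID 58813), which makes adenosine from AMP outside the cell, was at a CPM of 88.7, 79.6 and 86.1 in TNF-α and of 93.7, 88.0 and 82.9 in TNF-α+NFL. Here too the groups overlapped, and replicates differed as much as the groups did (log2 fold change 0.058, 95% confidence interval -0.061 to 0.18, adjusted p = 0.77). The log2 fold change of Nt5e lay between 0.014 and 0.10 when 1 library was left out. The exact permutation test (two-sided) gave p = 0.4 for Eng and p = 0.5 for Nt5e.

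Pdgfra and Pdgfrb encode the receptor tyrosine kinases for platelet-derived growth factors. Pdgfra (gene ID 25267), the more stromal of the pair, was at a CPM of 688, 580 and 565 in the TNF-α replicates and of 595, 585 and 623 in the TNF-α+NFL replicates. TNF-α replicate 1 was the highest of all 6 libraries, and the other TNF-α libraries were the lowest. The group means of 611 ± 66.8 and 601 ± 20.0 (SD, n = 3 each) differed by less than the spread between replicates, with a log2 fold change of -0.024 (95% confidence interval -0.19 to 0.14, adjusted p = 0.95). Without TNF-α replicate 1, and on TPM, the sign turned, with log2 fold changes of 0.070 (adjusted p = 0.22) and 0.014.

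Pdgfrb (gene ID 24629), the receptor through which pericytes are recruited to vessels, showed the same arrangement of libraries. Its CPM was 1171, 991 and 997 in TNF-α and 1080, 1136 and 1068 in TNF-α+NFL. TNF-α replicate 1 was again above every other library, and the remaining TNF-α libraries were below every TNF-α+NFL library. With all 6 libraries the log2 fold change was 0.056 (95% confidence interval -0.085 to 0.20, adjusted p = 0.82). Without TNF-α replicate 1 it was 0.14 and passed the test (adjusted p = 0.0062), in a fit that called 3.43% of the tested genes higher and 3.51% lower. Across the 6 fits that left out 1 library, the log2 fold change of Pdgfrb ran from 0.017 to 0.14 and passed in that 1 only. The ratio of Pdgfrb to Pdgfra in TPM was 2.09, 2.09 and 2.16 in TNF-α and 2.22, 2.38 and 2.10 in TNF-α+NFL, so it varied little and overlapped between the groups.

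Mcam (gene ID 78967) encodes an adhesion molecule of the immunoglobulin family found on pericytes, endothelium and clonogenic stromal cells. It had a CPM of 29.7, 30.0 and 31.1 in the TNF-α replicates and of 40.0, 39.5 and 38.1 in the TNF-α+NFL replicates. Each group was tight and the gap between them was wide compared with the spread, with means of 30.3 ± 0.758 and 39.2 ± 0.966 (SD, n = 3 each). The log2 fold change was 0.37 (standard error 0.051, 95% confidence interval 0.26 to 0.48, edgeR adjusted p = 0.0056), higher in 3 of 3 TNF-α+NFL libraries. The exact permutation p was 0.1 for Mcam, Cspg4 and Thy1 (two-sided), the smallest that 3 libraries against 3 allow. In fits that left out 1 library, Mcam kept a log2 fold change between 0.36 and 0.40. The adjusted p was no longer under 0.05 without TNF-α replicate 2 (0.053), without TNF-α+NFL replicate 1 (0.074) and without TNF-α+NFL replicate 2 (0.056).

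Cspg4 (gene ID 81651) encodes NG2, a large membrane proteoglycan of pericytes and other immature mesenchymal cells. Its CPM was 83.5, 72.0 and 67.9 in TNF-α and 61.3, 65.7 and 62.3 in TNF-α+NFL. All TNF-α+NFL libraries were below all TNF-α libraries, as in 8.17% of tested genes, but TNF-α replicate 3 lay close to TNF-α+NFL replicate 2, and in TPM these libraries overlapped (15.9 and 16.1 TPM). The log2 fold change was -0.24 (standard error 0.070, 95% confidence interval -0.40 to -0.083). It did not pass with all libraries (edgeR adjusted p = 0.22) or without TNF-α replicate 1, where the log2 fold change was -0.15 (adjusted p = 0.059). These pericyte surface markers therefore had opposite signs. Within a library, the ratio of Mcam to Cspg4 in TPM was 1.01, 1.19 and 1.31 in TNF-α and 1.86, 1.71 and 1.75 in TNF-α+NFL, a comparison chosen after the values were seen and given without a test.

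**Figure D2:**
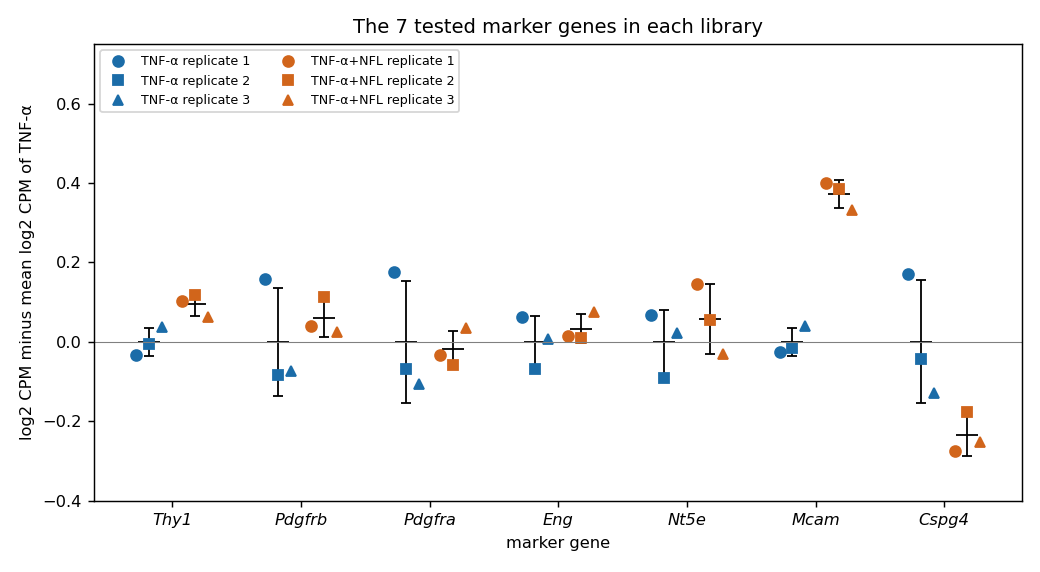
Log2 CPM of each tested marker gene in each library, minus the mean log2 CPM of the TNF-α group (vertical axis), with the mean and SD of each group (n = 3) in black. Mcam is 0.33 to 0.40 above in all TNF-α+NFL libraries, and TNF-α replicate 1 (blue circle) is the highest library for Pdgfrb, Pdgfra and Cspg4.

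Rgs5, Cd34 and Dpp4 mark pericytes and fresh adipose stromal cells more narrowly than the other members. Rgs5 (gene ID 54294), a brake on G-protein signaling in vascular mural cells, had 0, 0 and 1 estimated counts in TNF-α replicates 1, 2 and 3 and 1, 2 and 1 in those of TNF-α+NFL. Cd34 (gene ID 305081), a sialomucin of stromal progenitors, endothelium and blood stem cells, had 1 count in TNF-α replicate 1 and 0 in each of the other libraries. Dpp4 (gene ID 25253), a peptidase on the surface of early adipose progenitors, had 2, 0 and 1 counts in TNF-α and 1, 0.96 and 0 in TNF-α+NFL. All 3 genes were at or under the floor of 3 counts in every library of both groups, so no fold change is given. A count of 0 allows a level of up to 0.152 to 0.157 CPM, depending on the library, for counting error only. At this depth no transcript of Cd34 was detected after NFL, and no difference was detectable for Rgs5 or Dpp4.

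In bulk RNA, fewer cells of a type and less RNA per cell cannot be told apart, and neither can rat RNA from NFL and RNA of the rat chondrocytes. Markers of the other cell types of fat were counted beside the 10 genes. Adipoq and Plin1, which define adipocytes, had 0 to 4 counts in any library, and Pecam1, which defines endothelium, had 0 to 4. Cdh5, another endothelial marker, was looked for but not matched to a listed gene, so it was not analysed here. Of the 5 red cell genes found, 4 were at or under 3 counts in every library, and the other, Slc4a1, had at most 5. Other genes of the adipocyte list, which are not limited to fat cells, were measured in every library, such as Fabp4 at 154 to 187 counts, Plin4 at 269 to 339 and the lipase gene Pnpla2 at 1335 to 1483. The summed level of the adipocyte list was 147 to 154 TPM in TNF-α and 149 to 163 TPM in TNF-α+NFL. The 6 adipocyte markers that were too low to test, Adipoq and Plin1 among them, summed to 4, 7 and 3 counts in TNF-α replicates 1, 2 and 3 and to 5, 10 and 12 in those of TNF-α+NFL. These sums overlapped between the groups, with the highest values in TNF-α+NFL replicates 2 and 3. Adipoq, Plin1 and Pecam1 were thus near 0 in both groups, and several less specific markers were not.

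A few leukocyte markers were highest in TNF-α replicate 1. Ptprc, the pan-leukocyte phosphatase CD45, had 7 counts there and 2 or fewer in each other library. Csf1r, the receptor of macrophages for their growth factor, had 40 counts there and 1 to 7 elsewhere. Lyz2 and Tyrobp, both myeloid genes, had 14.95 and 11 counts there and 0 in the other 5 libraries, and these genes and Csf1r were named after their values were seen. Of the 14 leukocyte markers found, 12 did not pass the filter on low counts, and 7 of these had their highest count in TNF-α replicate 1, where the 12 summed to 94.8 counts against 12.62 to 17.43 in the other libraries. Over all 14, the summed level was 105 to 118 TPM in TNF-α and 98.9 to 102 TPM in TNF-α+NFL, most of it from Cd14 and Cd68. TNF-α replicate 1 is also the library in which Pdgfra, Pdgfrb and Cspg4 were highest. The same held for genes of other lists, such as Fn1, with a CPM of 45131 there against 33968 to 35912 elsewhere. It did not hold for Thy1 or Mcam, which had their lowest CPM there. Whether leukocyte RNA had a part in the values of Pdgfra, Pdgfrb and Cspg4 was not tested.

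**Figure D3:**
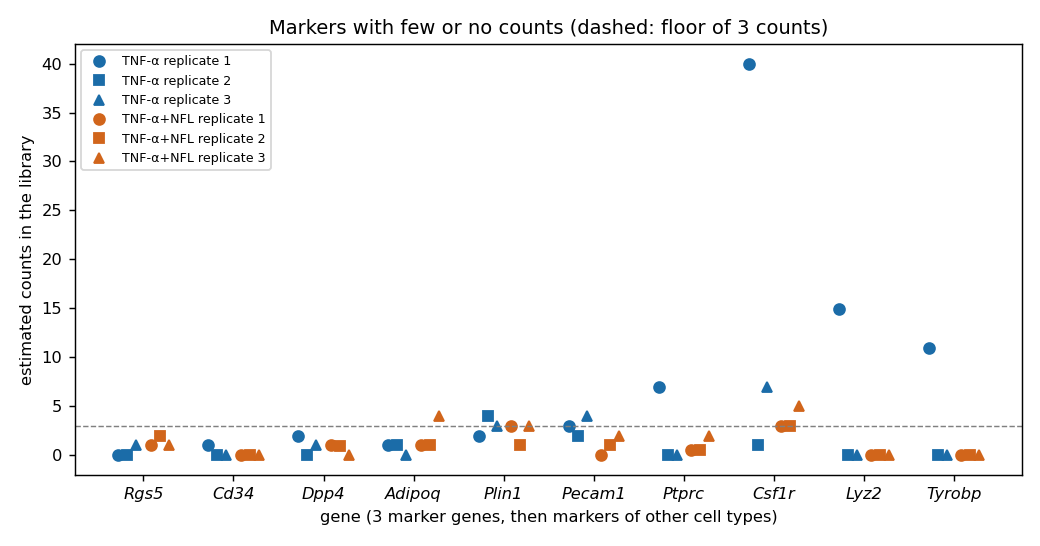
Estimated counts (vertical axis, linear) of Rgs5, Cd34 and Dpp4 and of 7 markers of adipocytes, endothelium and leukocytes in each library, with the floor of 3 counts dashed. Csf1r at 40, Lyz2 at 14.95, Tyrobp at 11 and Ptprc at 7 counts in TNF-α replicate 1 are the highest of each of these genes. Csf1r also had 7 counts in TNF-α replicate 3.

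The spread among TNF-α replicates was largest for Pdgfra, Cspg4 and Pdgfrb, with coefficients of variation of 10.9%, 10.9% and 9.73%. In TNF-α+NFL the same genes varied by 3.33%, 3.64% and 3.28%. The median over the 5677 tested genes with a mean CPM of at least 30 was 4.3% in TNF-α and 2.76% in TNF-α+NFL. Mcam varied by 2.5% and 2.46%, and Thy1 by 2.49% and 1.98%, so TNF-α replicate 1 did not stand apart for these genes. The first principal component of the libraries, with 26.1% of the variance, placed TNF-α replicates 1 and 3 at its opposite ends.

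**Figure D4:**
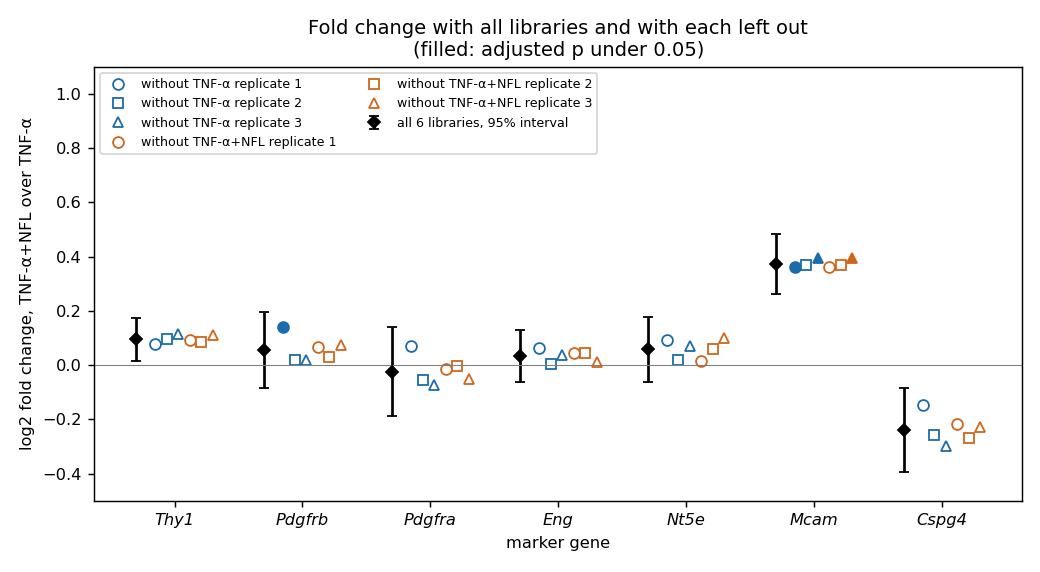
Log2 fold change of each tested marker gene in TNF-α+NFL over TNF-α (vertical axis), with all 6 libraries (black diamond, 95% interval) and with each library left out in turn (filled where the adjusted p is under 0.05). Pdgfra lies above 0 without TNF-α replicate 1 and below 0 in the other fits, Pdgfrb passes at 0.14 without that library, and Mcam stays between 0.36 and 0.40.

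Genes that share a cell type or a pathway with the 10 were read from 13 further lists, also drawn up with earlier results known, of which 120 different genes were tested. Of these, 3 passed an adjusted p of 0.05 (2.5%, against 0.611% of all tested genes), all from the mural cell and endothelial lists. Of the 10 tested genes in the list of other mural cell markers, 1 was higher and 1 was lower. Myh11, the smooth muscle myosin heavy chain, had a CPM of 53.5, 45.7 and 47.2 in TNF-α and 59.8, 58.3 and 61.2 in TNF-α+NFL (log2 fold change 0.29, standard error 0.059, adjusted p = 0.041). Ndufa4l2, a mitochondrial protein abundant in pericytes and induced in hypoxia, had a CPM of 134, 132 and 135 in TNF-α and 116, 109 and 117 in TNF-α+NFL (log2 fold change -0.23, standard error 0.042, adjusted p = 0.030). In fits that left out 1 library, Myh11 and Ndufa4l2 passed only without TNF-α replicate 1. Neither passed with limma-voom (adjusted p = 0.11 and 0.074) or with the replicate number as a block (0.062 and 0.063). The median log2 fold change of the 10 was -0.13, with 3 positive and 7 negative, and it was -0.063 without TNF-α+NFL replicate 1. The pericyte potassium channel genes Kcnj8 (2.62 TPM) and Abcc9 (3.49 TPM) were low and did not pass (adjusted p = 0.75 and 0.92). Without TNF-α replicate 1, 1 of the 10 was higher and 2 were lower, against 3.43% and 3.51% of all tested genes. With all libraries, 5 of the 10 had an unadjusted p under 0.05 by edgeR, 1 higher and 4 lower, against 11.1% of all tested genes. Cox4i2, among those lower, had a log2 fold change of -0.36 (edgeR adjusted p = 0.06). At an adjusted p of 0.05, edgeR thus called members of the mural cell list in both directions, and the unadjusted ones were mostly lower. The summed level of that list was 646 to 711 TPM in TNF-α and 608 to 622 TPM in TNF-α+NFL. Most of it came from Ndufa4l2 (means of 282 TPM in TNF-α and 246 TPM in TNF-α+NFL) and Angpt1 (225 and 219 TPM).

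The list of other adipose stromal markers had 17 tested genes, with means from 1041 TPM (Icam1) to 0.548 TPM (Clec3b). Fap, Cxcl12, Cd44, Icam1 and Gas6 had positive log2 fold changes. Pi16 and Lepr were low (4.3 and 1.48 TPM) and had negative ones (-0.15 and -0.23). Zfp423, Dlk1 and Ebf2 were too low to test. Of the 17, 0 passed by edgeR, where 4 had an unadjusted p under 0.05 (11.1% of all tested genes did) and 1 passed by the DESeq2 Wald test. The median log2 fold change of the 17 was 0.039, with 13 positive and 4 negative (0.019 without TNF-α replicate 2, 0.070 without TNF-α+NFL replicate 3). The summed level of the list was 3562 to 3749 TPM in TNF-α and 3845 to 3960 TPM in TNF-α+NFL. Icam1, Gas6 and F3 made up most of it. F3 had a mean of 599 TPM in TNF-α and 716 TPM in TNF-α+NFL and did not pass with all libraries (edgeR adjusted p = 0.16). Without TNF-α replicate 1, 3 of the 17 were higher, in the fit that called 3.43% of all tested genes higher and 3.51% lower. The adipocyte list had 10 tested genes, of which 5 were positive and 5 negative. The median of 0.0021 took either sign when 1 library was left out, at -0.025 without TNF-α replicate 3, and 0.047 when replicate 1 of that group was dropped instead. There 0 passed by edgeR or DESeq2 and 1 had an unadjusted p under 0.05.

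Of the 11 endothelial markers found, 3 could be tested, and Flt1 was higher. The others were Egfl7, with a log2 fold change of -0.26 and all TNF-α+NFL libraries below all TNF-α libraries (edgeR adjusted p = 0.31), and Esam, whose groups overlapped (0.45, adjusted p = 0.65). The tested endothelial markers thus had both signs. Flt1 encodes a VEGF receptor and had a CPM of 3.72, 2.94 and 3.49 in TNF-α and of 5.26, 5.58 and 6.21 in TNF-α+NFL, with no overlap. Its log2 fold change was 0.75 (standard error 0.14, 95% confidence interval 0.45 to 1.05, edgeR adjusted p = 0.031), and in fits that left out 1 library it passed only without TNF-α replicate 1. It did not pass with limma-voom (adjusted p = 0.080) or with the replicate block (0.063), and DESeq2 gave it no adjusted p. Pecam1 had 0 to 4 counts, as above, and 5 of the 11 endothelial markers were at or under 3 counts in every library.

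Genes that act with the members were read from further lists. PDGF-AA, made from Pdgfa, is a ligand of PDGFRα, and Pdgfa had a log2 fold change of 0.24 that did not pass (edgeR adjusted p = 0.081). All TNF-α+NFL libraries were above all TNF-α libraries in Pdgfa, as in 8.66% of all tested genes. Of 19 tested PDGF ligand and receptor signaling genes, 0 passed by edgeR or DESeq2, with 4 at an unadjusted p under 0.05, against 11.1% of all tested genes, and a median log2 fold change of 0.023, which was 0.0010 without TNF-α+NFL replicate 2 and 0.052 without TNF-α replicate 1. When TNF-α replicate 1 was left out, 3 of these were higher, against 3.43% of all tested genes. Of 10 tested endoglin partners, such as the type I receptor gene Acvrl1, 0 passed by either test, with 2 at an unadjusted p under 0.05, against 11.1% of all tested genes, and a median of 0.043, which was -0.00080 without TNF-α replicate 2, against 0.072 without TNF-α replicate 1. In the fit without TNF-α replicate 1, 1 of these was higher.

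The adenosine list, in which Nt5e sits between Entpd1, which supplies AMP, and the adenosine receptors, had 11 tested genes. Of these, 0 passed by edgeR or DESeq2 and 0 had an unadjusted p under 0.05, with a median of -0.0061, which was above 0 whichever library was left out (0.0053 to 0.045). Of 3 tested RGS genes of the family of Rgs5, 0 passed by either test, with 1 at an unadjusted p under 0.05, against 11.1% of all tested genes. The median of these 3 was 0.23, and it ran from 0.085 without TNF-α+NFL replicate 1 to 0.42 without TNF-α+NFL replicate 3. The list of peptidases related to Dpp4 and of Dpp4 substrates had 10 tested genes, of which 0 passed by either test, with 1 at an unadjusted p under 0.05. That median was -0.014 and took either sign when 1 library was left out (-0.0094 to 0.012).

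Lists for the labelled cells and for blood cells were read in the same way. For the 15 tested chondrocyte markers the median log2 fold change was 0.064, with 11 positive (-0.0048 without TNF-α+NFL replicate 2 and 0.14 without TNF-α replicate 1), and 0 passed by edgeR, where 2 had an unadjusted p under 0.05 and 1 passed by DESeq2. The 12 fibroblast matrix genes had a median of 0.047, with 7 positive (-0.0044 without TNF-α replicate 2, against 0.10 without TNF-α replicate 1), and 0 passed by edgeR, where 4 had an unadjusted p under 0.05 (11.1% over all tested genes) and 1 passed by DESeq2. Without TNF-α replicate 1, 1 chondrocyte marker was higher, and 5 of the fibroblast matrix genes were higher and 1 lower, against 3.43% and 3.51% of all tested genes. The 2 tested leukocyte markers, Cd68 and Cd14, were both negative (median -0.14), and 0 passed by edgeR or DESeq2, with 1 at an unadjusted p under 0.05 and 1 lower without TNF-α replicate 1. No red cell marker could be tested.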

How the data were processed

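RNA-seq of 6 libraries of rat chondrocytes (3 TNF-α, 3 TNF-α+NFL) was analysed. The authors deposited estimated counts per gene (not normalized), FPKM and TPM values for each library. The paper's methods name FPKM. The submitters' processing notes name HISAT2 2.0.4, Bowtie2 2.2.5, RSEM 1.2.12 and the build Rnor_6.0, without roles. The annotation and the strand setting are not given in the sources used here. No genome of that build was used, so no coordinates or sequences are given. Symbols were matched in the table or by gene ID in RefSeq GRCr8.

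Between 27.3% and 28.0% of genes had a fractional count in a library, Pdgfra, Nt5e and Mcam among them in all 6, so their reads were partly shared with other genes or copies and their counts are less certain. The main test was the quasi-likelihood F-test of edgeR 4.0.16 (R 4.3.3) on counts rounded to whole numbers, with filterByExpr, TMM factors and the robust option. It was two-sided, and p-values were adjusted by Benjamini-Hochberg across the 13250 genes that passed. The test was checked on simulated counts. A standard error is the size of the log2 fold change divided by the root of F. Alternatives were DESeq2 1.42.0, limma 3.58.1, other filters and scalings, the replicate number as a block, a stricter threshold and leaving out each library. TPM and FPKM were tested with limma on log2(value + 1), which understates changes of low genes. A gene at 3 counts or fewer was at the floor.

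All 10 members were named whatever their values, with the genes of 13 other lists past an adjusted p of 0.05 (at most 4 per list) and a few defining markers. The members and lists were chosen with earlier results of these data known. Replicates within a group varied 2.87 to 15.7 times more than counting noise, so none was a repeat deposit.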

Additional observations from a re-analysis of the deposited data

How the results depend on the processing

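The rise of Mcam kept its direction in each alternative run, with a log2 fold change from 0.34 to 0.40, and missed an adjusted p of 0.05 with limma on log2(FPKM + 1) (0.078) and in 3 of the 6 fits that left out 1 library. So 0 members were higher with limma on log2(FPKM + 1), and 0 to 2 across the fits that left out 1 library, the highest without TNF-α replicate 1. No member was lower in any setting. Pdgfra changed sign with limma on log2(TPM + 1), at 0.014, and without TNF-α replicate 1. Its log2 fold change lay between -0.075 and 0.070 when 1 library was left out. The median log2 fold change of the 7 tested members was 0.089 with limma on log2(TPM + 1) and lay between 0.017 and 0.080 when 1 library was left out.

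Over all genes, against 54 higher and 27 lower, there were 84 and 48 with no low-count filter, 95 and 53 with the DESeq2 Wald test, 26 and 9 with limma-voom, 8 and 3 with limma on log2(TPM + 1), 1 and 1 with limma on log2(FPKM + 1), and 16 and 7 at an adjusted p under 0.01. Leaving out 1 library gave 5 to 460 higher and 0 to 470 lower genes, the most without TNF-α replicate 1. Replicate numbers showed no pairing of the libraries (deviations of same-numbered libraries correlated at 0.030, -0.024 and 0.10). With the replicate block there were 25 and 9, and Mcam stayed at 0.37 (adjusted p = 0.021). The cause was not tested. Myh11, Ndufa4l2 and Flt1 missed an adjusted p of 0.05 with the block (0.062, 0.063 and 0.063) and with limma-voom, and DESeq2 gave Flt1 no adjusted p. Depth limits what can be said of Rgs5, Dpp4 and Cd34, and 3 libraries a group limit the rest.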
